A study of Homo sapiens with 6 samples.

Results

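Mitochondria carry their own set of proteases, which clear misfolded proteins and cut regulatory ones. In the matrix, LONP1 and the ClpXP complex, made of the peptidase CLPP and the unfoldase CLPX, degrade soluble proteins. In the intermembrane space HTRA2 acts as a serine protease, and the inner membrane holds the i-AAA protease YME1L1, the m-AAA proteases built from AFG3L2 and SPG7, the stress-activated metalloprotease OMA1 and the rhomboid protease PARL. These 9 genes were followed in OVCAR8, a cell line derived from a human ovarian cancer and labelled wild type in genotype, cultured for 72 h with DMSO or with 2 nM pladienolide B, an inhibitor of the splicing factor SF3B1. Polyadenylated RNA was sequenced from 3 samples in each group. Nothing states that the 3 samples of a group were separate cultures, so p-values measure the spread between these samples, which may be technical.

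The members were chosen by name from a table of 38637 genes, and the choice was made with earlier results of this same contrast known. The differences between the groups are therefore given for the members as a description, without a p-value. All 9 members were among the 16178 genes that passed the filter on low values. Values are reads adjusted for library size, called adjusted reads below, and log2 fold changes are differences of log2(value + 1), pladienolide B minus DMSO. The samples held 22621338 to 26130882 reads, and the lowest correlation of log2 values between samples of a group was 0.992. DMSO replicate 2 stood apart from the other DMSO samples, with a chi-square per degree of freedom of 7.42 and 7.31 against replicates 1 and 3. Those replicates gave 2.01 against each other, and the pairs of pladienolide B samples gave 3.17, 3.25 and 4.84. Of the markers of ovarian epithelial cancer cells, PAX8 was present at 4108 adjusted reads on average in DMSO and KRT8 at 41458, whereas WT1 (20.6), KRT19 (16.4) and MUC16 (18.0) were low. The leukocyte marker PTPRC had 0.320 adjusted reads on average in DMSO, no read of CD3E or DCN was found there, and of the other markers outside the epithelium CD68 had 1146, PECAM1 31.6, VWF 25.5, LUM 20.9 and MS4A1 0.319. Some markers moved with the treatment in the limma fit described below. Of the 9 epithelial markers, KRT8 (log2 fold change 0.27, adjusted p = 0.00084) and KRT18 (0.29, adjusted p = 0.00096) were higher and KRT7 (-0.64, adjusted p = 7.7e-06) and MSLN (-0.44, adjusted p = 4.5e-07) lower. Of the 8 other markers 4 were tested, and CD68 was the 1 called, at 0.41 (adjusted p = 2.4e-05). The part of these shifts in the members' values was not tested.

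LONP1 was the member with the largest difference and the only one that was at least 2-fold lower after pladienolide B. LONP1 is the ATP-dependent matrix protease that degrades oxidised and unassembled proteins and binds mitochondrial DNA. It had 5339.8, 4928 and 5599.8 adjusted reads in DMSO replicates 1 to 3 and 2310.5, 2259 and 2239.8 in pladienolide B replicates 1 to 3. Every DMSO sample was above every pladienolide B sample, and the pladienolide B samples lay close together. The mean fell from 5289 ± 339 to 2269.7 ± 36.6 adjusted reads (SD, n = 3 each), which is 42.9% of the DMSO level. The log2 fold change was -1.22 with a standard error (SE) of 0.05 and a 95% interval of -1.32 to -1.12. As whole reads before the adjustment, LONP1 had 5672, 4889 and 5924 in DMSO and 2217, 2116 and 2235 in pladienolide B, so the difference was present before library size was taken into account. In these bulk samples fewer cells that express a gene and less RNA per cell cannot be told apart.

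Among all tested genes, 155 (0.958%) had a larger fall than LONP1. LONP1 was chosen with this contrast known, and the cut used next is its own DMSO level, so both ranks are a description only. Of the 853 tested genes with at least the adjusted reads of LONP1 in DMSO, 3 fell further. These were the mitophagy receptor BNIP3 with a log2 fold change of -1.73, IGFBP3, which binds insulin-like growth factors, with -1.43, and the lactate exporter SLC16A3 with -1.31. The 5 genes with the profile most like that of LONP1 over the 6 samples were sought among 12079 genes with a mean of at least 100 adjusted reads. They were P4HA1, TNFAIP8L1, TBC1D22A, FBXL7 and ATP2B4, with a root mean square difference from LONP1 of 0.043, 0.056, 0.067, 0.070 and 0.082 on the log2 scale. Their own log2 fold changes were -1.26, -1.25, -1.23, -1.27 and -1.32, which the choice by profile brings close to that of LONP1. P4HA1, the nearest, went from 4167 to 1740.3 adjusted reads on average.

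**Figure D1:**
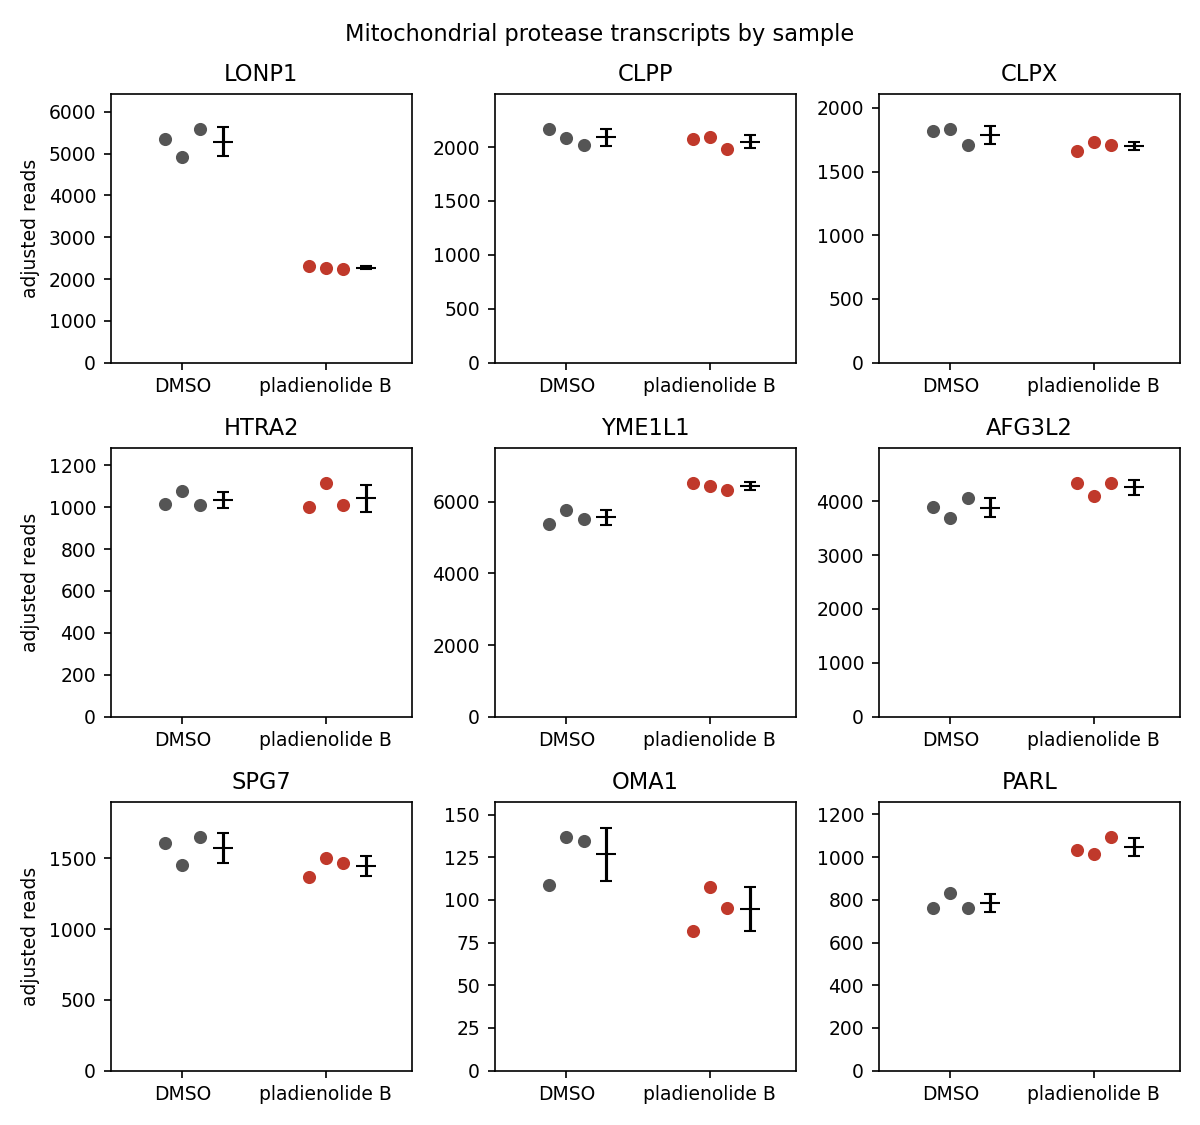
Adjusted reads of the 9 members in each sample, with 1 panel for each gene and DMSO and pladienolide B side by side, points for the 3 samples of a group and bars for the mean and SD. LONP1 lies between 4928 and 5599.8 in DMSO and between 2239.8 and 2310.5 in pladienolide B, while the points of CLPP, CLPX, HTRA2 and SPG7 overlap between the groups.

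LONP1 lies on the minus strand of chromosome 19, at chr19:5691834-5720452 in GRCh38, and its canonical GENCODE transcript has 18 exons and 17 introns. The 30-base stretches below are shown because they hold ACGTG on either strand in the 250 bases before an annotated start of a member. ACGTG is a form of the core of the hypoxia response element, and other forms of that core were not searched for. They were read from RefSeq promoters (GRCh38.p14) and run 5′ to 3′ on the gene's strand, with the matched bases in capitals. The LONP1 stretches at chr19:5720341-5720370 and chr19:5720178-5720207 lie inside the span of LONP1 given above, which reaches its second start. CATSPERD on the opposite strand shares 297 bases of that span. Where the stretches lie against exons of CATSPERD or of other LONP1 transcripts is not given here.
LONP1, chr19:5720341-5720370, minus strand: ctcacagccttcCACGTGaccggaaaaggc
LONP1, chr19:5720178-5720207, minus strand: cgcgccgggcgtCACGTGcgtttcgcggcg
LONP1 at its second start, chr19:5720655-5720684, minus strand: gcacaatccgagtACGTGcaggctgaagcc
CLPX, chr15:65185483-65185512, minus strand: ctcgccttcgcctCACGTagcttcaccagc
SPG7, chr16:89508325-89508354, plus strand: accgcgcaggcgcCACGTcagaccccgccc

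At the LONP1 start nearest to the coding region the motif formed CACGTG at 2 places, beginning 212 and 49 bases before the start. CACGTG reads the same on both strands and is also known as an E-box. The letters ACGTG or their reverse complement were present in 18.5% of 35116 promoters of this length, CACGTG in 6.34% and CACGTG at 2 or more places in 0.535%. CACGTG was not among the motifs chosen beforehand and is the form that LONP1 holds, so its shares are a description only. ACGTG or its reverse complement began at 4 positions in this LONP1 window, as each CACGTG counts as 2. Of all promoters, 7.52% held 2 or more such positions and 0.669% held 4 or more. The cut of 4 is the count of LONP1 itself and rests on the same CACGTG places, so these shares too are a description only. All promoters were counted whatever their GC content, which was 65.6% in this LONP1 window. CLPX had 1 match of ACGTG, 157 bases before the start, and SPG7 had 1, at 50 bases before its first start and 65 before its second. No match of ACGTG lay in the windows of HTRA2, AFG3L2, OMA1 and PARL. The letters TGATGCAA and the looser TGATGNAAN, both forms of the element that ATF4 and CHOP bind, matched none of the 10 member promoters on either strand and were present in 0.772% and 3.13% of all promoters. CLPP and YME1L1 have no entry in the promoter table. A match of this kind describes the letters only and is neither a binding site nor a cause of the values above.

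The partners of the other matrix protease differed little between the groups. CLPP, the peptidase of ClpXP (chr19:6361531-6370242), had 2171, 2083 and 2016 adjusted reads in DMSO and 2078, 2091 and 1979 in pladienolide B. The groups overlapped, and the log2 fold change was -0.03 (SE 0.05, 95% interval -0.13 to 0.07). CLPX, the unfoldase that feeds CLPP (chr15:65148219-65185374), had 1817, 1838 and 1709 in DMSO and 1665, 1731 and 1709 in pladienolide B. Its groups overlapped too, with a log2 fold change of -0.07 (SE 0.05, 95% interval -0.17 to 0.03). The ratio of CLPX to CLPP adjusted reads was 0.856 ± 0.024 in DMSO and 0.831 ± 0.031 in pladienolide B (SD, n = 3 each). Both intervals leave out a change of the size seen for LONP1.

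HTRA2, the intermembrane space protease that also binds inhibitor of apoptosis proteins once released (chr2:74529405-74533556), had 1014.7, 1075.5 and 1008 adjusted reads in DMSO. In pladienolide B it had 1002, 1117 and 1009. The lowest and the highest of the 6 values were both in pladienolide B, and the log2 fold change was 0.01 (SE 0.06, 95% interval -0.11 to 0.14). Its sign depended on which sample was left out, between -0.04 and 0.04.

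The AAA proteases of the inner membrane did not move as a group. YME1L1, the i-AAA protease that faces the intermembrane space and cuts OPA1 (chr10:27110111-27155051), had 5390.2, 5779 and 5514 adjusted reads in DMSO and 6534, 6447 and 6329.5 in pladienolide B. All pladienolide B samples were above all DMSO samples, at 116% of the DMSO mean. The log2 fold change was 0.21 (SE 0.04, 95% interval 0.12 to 0.30).

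AFG3L2, the subunit that can form an m-AAA protease by itself (chr18:12328944-12377309), had 3885, 3694 and 4051 adjusted reads in DMSO and 4344, 4089.9 and 4336 in pladienolide B. The groups were apart by a narrow margin, between 4051 and 4089.9, and the mean was 109.8% of that in DMSO. Its log2 fold change was 0.14 (SE 0.05, 95% interval 0.04 to 0.23). SPG7, also called paraplegin, which needs AFG3L2 to assemble (chr16:89508379-89557768), had 1607, 1451 and 1653 in DMSO and 1368, 1504 and 1465 in pladienolide B. Here the groups overlapped, because DMSO replicate 2 lay below pladienolide B replicates 2 and 3. The log2 fold change of SPG7 was -0.12 (SE 0.06, 95% interval -0.24 to 0.01), and -0.17 without DMSO replicate 2. The ratio of AFG3L2 to SPG7 adjusted reads was 2.42, 2.55 and 2.45 in DMSO and 3.18, 2.72 and 2.96 in pladienolide B, so that every pladienolide B sample had the higher ratio.

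OMA1 and PARL, the inner membrane proteases that use no ATP, moved in opposite directions. OMA1, the metalloprotease that cuts OPA1 and DELE1 under stress (chr1:58480719-58546726), had 109, 137 and 134 adjusted reads in DMSO and 81.5, 107 and 95.2 in pladienolide B. The lowest DMSO value and the highest pladienolide B value were next to each other, and the mean was 74.7% of that in DMSO. The log2 fold change of OMA1 was -0.42 with an SE of 0.15 and a 95% interval of -0.74 to -0.09, the widest of the 9. OMA1 was the member with the fewest reads, 78 to 142 whole reads in a sample.

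PARL, the rhomboid protease that cuts PINK1 and PGAM5 (chr3:183826488-183884901), had 761, 833 and 761 adjusted reads in DMSO and 1033, 1014 and 1096 in pladienolide B. The groups were well apart, and the mean rose from 785 ± 41.3 to 1048 ± 43.0 (SD, n = 3 each). PARL reached 134% of its DMSO level, the largest difference upwards among the members. Its log2 fold change was 0.42 (SE 0.06, 95% interval 0.29 to 0.55).

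**Figure D2:**
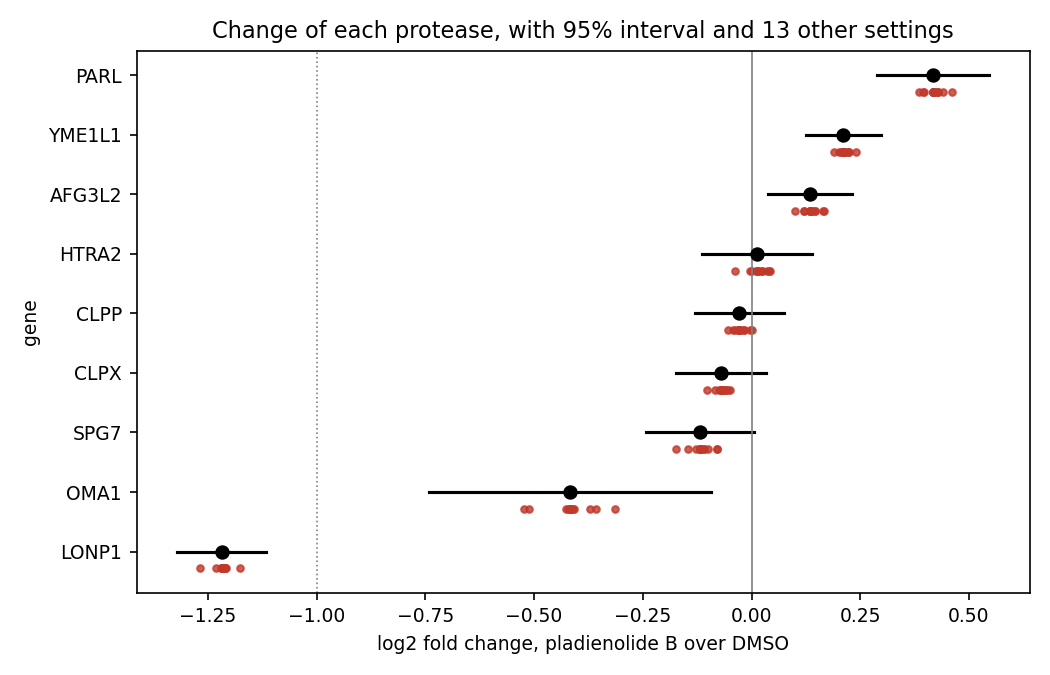
Log2 fold change of each member, pladienolide B minus DMSO, as points with bars for the 95% interval of the limma fit (3 samples in each group). LONP1 stands at -1.22, the intervals of PARL, YME1L1 and AFG3L2 lie above 0, and that of OMA1 lies below 0. Those of CLPP, CLPX, HTRA2 and SPG7 hold 0.

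In the limma fit across all genes, with a Benjamini-Hochberg adjusted p threshold of 0.05, 5 of the 9 members were called, against 47.6% of all tested genes. PARL, YME1L1 and AFG3L2 were the 3 called higher, against 22.4% of all genes, and LONP1 and OMA1 the 2 called lower, against 25.2%. LONP1 was the 1 member both called and at least 2-fold lower, against 1.98% of all genes. The groups of 3 did not overlap for the same 5 members, against 55.3% of all genes. Since this contrast was known when the members were chosen, nothing is read from these counts. The median log2 fold change was -0.03 over the 9 members and -0.004 over all tested genes. LONP1, YME1L1 and PARL were called under each of the 13 other settings tried, AFG3L2 under 9 and OMA1 under 6. The call of AFG3L2 was lost without DMSO replicate 1 (log2 fold change 0.14), pladienolide B replicate 1 (0.12) or pladienolide B replicate 3 (0.12). That of OMA1 was lost without DMSO replicate 2 (-0.36), DMSO replicate 3 (-0.37), pladienolide B replicate 1 (-0.32) or pladienolide B replicate 3 (-0.43). SPG7 was called under 1 setting, the fit without DMSO replicate 2, and CLPP, CLPX and HTRA2 under none.

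The balance between the members also differed. LONP1 made up 24.2%, 22.6% and 24.9% of the adjusted reads of the 9 members in the DMSO samples and 11.3%, 11.1% and 11.1% in the pladienolide B samples. The other 8 members together had 16830 ± 67.9 adjusted reads in DMSO and 18075 ± 48.2 in pladienolide B (SD, n = 3 each). All 9 together had 22119 ± 314 and 20345 ± 78.8. The sum of the 9 was thus lower in pladienolide B through LONP1, while the sum of the rest was higher. The ratio of LONP1 to YME1L1 adjusted reads was 0.953 ± 0.088 in DMSO and 0.353 ± 0.002 in pladienolide B. Neither the shares nor the ratios are corrected for length, so they compare the groups and not the genes.

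Per kilobase of coding sequence, YME1L1 had the highest level in DMSO with 2589 ± 92.4 adjusted reads per coding kb (SD, n = 3), followed by CLPP with 2515 ± 93.9. The samples of these leading genes overlapped. LONP1 with 1838 ± 118 per coding kb and AFG3L2 with 1621 ± 74.5 came next, and their samples were just apart, at 1713 and 1694. CLPX (941 ± 36.5), HTRA2 (752 ± 26.99), PARL (690.3 ± 36.3) and SPG7 (658 ± 44.4) followed per coding kb, and of these neighbours PARL and SPG7 overlapped. OMA1 was far below all others, at 80.6 ± 9.92 per coding kb.

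In pladienolide B, LONP1 had 789 ± 12.7 adjusted reads per coding kb and held rank 6 of the 9, after rank 3 in DMSO, below PARL with 922 ± 37.8 and CLPX with 896 ± 17.9. Its samples, at 779 to 803 per coding kb, overlapped those of HTRA2 at rank 7, at 729 to 813, and the samples of PARL and CLPX overlapped as well. YME1L1 (2997 ± 47.7) and CLPP (2466 ± 73.5) kept the first and second place per coding kb, OMA1 (60.3 ± 8.26) the last, and PARL moved from rank 7 to rank 4. The order depended on the length used. Per kilobase of the whole canonical transcript, LONP1 was first in DMSO with 1711 ± 110 and YME1L1 second with 1327 ± 47.4, while CLPP, whose canonical transcript is much longer than its coding part, was at 867 ± 32.4. In pladienolide B, LONP1 had rank 4 on that scale with 734 ± 11.8, so its fall in the order was seen with either length.

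**Figure D3:**
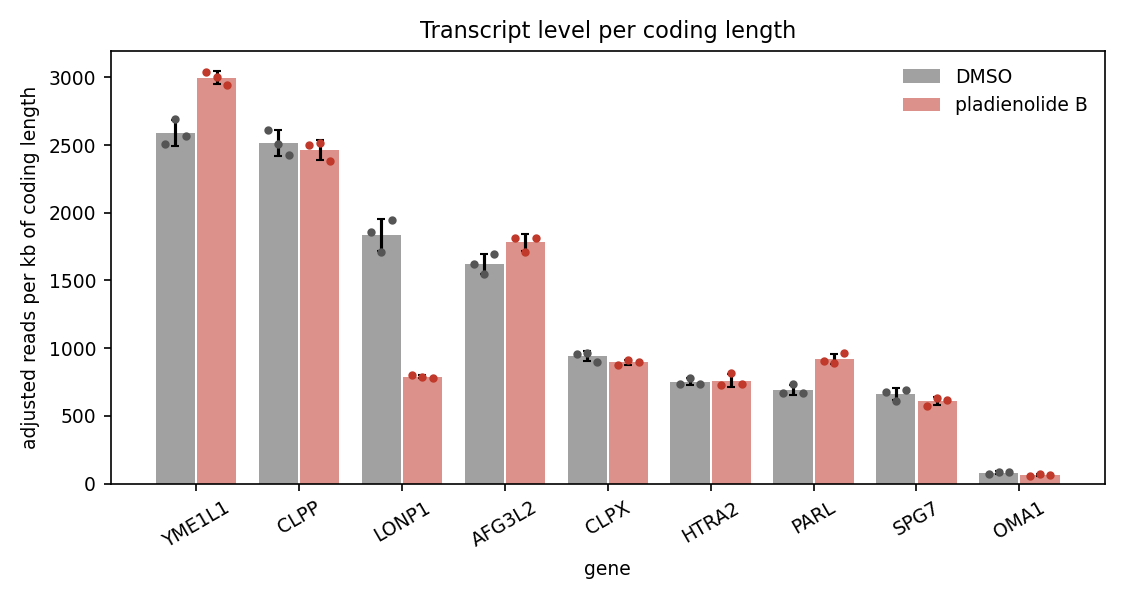
Adjusted reads per kilobase of coding sequence for the 9 members, with bars for the mean and SD and points for the 3 samples of DMSO and of pladienolide B. LONP1 drops from the third place (1838) to the sixth (789), OMA1 is lowest in both groups, and YME1L1 and CLPP are highest.

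The members differ in gene structure as well. LONP1 has the most GC-rich introns of the 9, at 57.1% GC, above 90.3% of 13705 tested genes with a canonical transcript, whose median was 44.5%. CLPP (52.4%) and SPG7 (52.1%) followed, and OMA1 had the lowest intron GC at 36.3%, above 5.91% of these genes. The number of introns was 17 in LONP1, 18 in YME1L1, 16 in AFG3L2 and SPG7, 13 in CLPX, 9 in PARL, 8 in OMA1, 7 in HTRA2 and 5 in CLPP, against a median of 8. HTRA2 has the shortest introns, with a median of 153 bases, and PARL the longest with 3782. LONP1 and OMA1 thus stood at opposite ends of the intron GC values of the 9. Whether any of these features bears on the values was not tested.

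Several members overlap a neighbour in gene span, introns included, and the sources used here do not say whether reads were counted by strand. LONP1 shares 42 bases with RPL36, a ribosomal protein gene on the opposite strand that went from 9377 to 7160.2 adjusted reads (log2 fold change -0.39, limma adjusted p = 1.01e-06), and 297 with CATSPERD, which had 3.89 and 5.54 on average. AFG3L2 shares 883 bases with TUBB6, a tubulin gene on the opposite strand that fell from 25480.3 to 20878 adjusted reads (log2 fold change -0.29, limma adjusted p = 7.84e-05), and 7869 with LOC107985154, which had 17.3 and 19.0. YME1L1 shares 573 bases with the kinase gene MASTL on the opposite strand, whose log2 fold change was -0.18 (limma adjusted p = 0.022). RPL36 was thus lower in pladienolide B, as was LONP1, while TUBB6 and MASTL were lower and AFG3L2 and YME1L1 higher. HTRA2 shares 302 bases with AUP1 and 1299 with LOXL3, with log2 fold changes of -0.03 and -0.01. OMA1 lies wholly within the span of DAB1 on the same strand, which had 1.62 and 2.45 adjusted reads. The part of these neighbours in the members' values was not tested. The relatives LONP2, the Lon protease of peroxisomes, and AFG3L1P, a pseudogene related to AFG3L2, were looked at after the members' values had been seen. LONP2 had 1894 ± 65.1 adjusted reads in DMSO and 1962 ± 55.4 in pladienolide B, and its log2 fold change of 0.05 (SE 0.05, limma adjusted p = 0.41) was not called. AFG3L1P rose from 715 ± 52.7 to 829.5 ± 59.4, a log2 fold change of 0.21 (SE 0.07, limma adjusted p = 0.021).

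Other genes of mitochondrial proteostasis were read from 8 lists, in which 37 of 57 tested genes were called, 17 higher and 20 lower. Over all tested genes 47.6% were called, 22.4% higher and 25.2% lower, and these shares are the background of each list count that follows. The lists were chosen with results of this contrast known, so the counts describe the lists and are no evidence about them as groups. Adjusted p-values for them are from the same limma fit with Benjamini-Hochberg adjustment over all genes. Of 11 processing peptidases and other mitochondrial proteases, 2 were called higher and 6 lower, with a median log2 fold change of -0.27. The mitochondrial intermediate peptidase MIPEP fell from 287 ± 23.6 to 151 ± 22.6 adjusted reads (log2 fold change -0.93, adjusted p = 9.8e-06). IMMP2L, a subunit of the inner membrane peptidase, fell from 52.3 to 26.9 adjusted reads (log2 fold change -0.93, adjusted p = 0.0047). METAP1D, a methionine aminopeptidase, fell from 147 to 106 (log2 fold change -0.50, adjusted p = 0.02). PMPCA, a subunit of the peptidase that removes import signals, rose by 0.23 (adjusted p = 3e-04), and XPNPEP3, a proline aminopeptidase, by 0.16 (adjusted p = 0.041). METAP1D was not called without the variance trend (-0.50), without DMSO replicate 3 (-0.47) or without pladienolide B replicate 2 (-0.31), and XPNPEP3 was not called in 8 of the 13 other settings, in which it lay at 0.13 to 0.17.

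Of 11 mitochondrial chaperones, 4 were called higher and 2 lower, with a median log2 fold change of 0.10. TRAP1, the mitochondrial HSP90, fell from 4972 ± 114 to 2969 ± 129 adjusted reads (log2 fold change -0.74, adjusted p = 1.1e-09), and the disaggregase CLPB fell by 0.24 (adjusted p = 0.0011). BCS1L, an AAA protein of complex III assembly, rose by 0.43 (adjusted p = 0.00055), the HSP40 protein DNAJA3 by 0.35 (adjusted p = 2.5e-05) and the nucleotide exchange factor GRPEL1 by 0.23 (adjusted p = 0.00066). HSPD1, the mitochondrial HSP60, was looked at after its values had been seen and had 18382 ± 1624 adjusted reads in DMSO and 18455 ± 132 in pladienolide B (log2 fold change 0.01, adjusted p = 0.9). It was called, at 0.08, when DMSO replicate 2 was left out.

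Of the 5 scaffolds and partners of the inner membrane proteases, 1 was called higher and 2 lower. The prohibitins, which form a ring around the m-AAA proteases, differed in direction, with PHB at a log2 fold change of 0.12 (adjusted p = 0.033) and PHB2 at -0.18 (adjusted p = 0.0031). The call of PHB was lost in 7 of the 13 other settings, at 0.10 to 0.13. STOML2, which holds YME1L1 and PARL in a complex, fell by 0.16 (adjusted p = 0.0075). MAIP1 and GHITM, which bind the m-AAA protease, were not called, at log2 fold changes of 0.13 (adjusted p = 0.3) and -0.01 (adjusted p = 0.86), although MAIP1 was called without DMSO replicate 2 (0.23).

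Among 6 genes whose proteins are known substrates of LONP1 or ClpXP, 4 were called higher and none lower, with a median log2 fold change of 0.33. ALAS1, the first enzyme of heme synthesis, rose from 4308 ± 181 to 6257 ± 120 adjusted reads (log2 fold change 0.54, adjusted p = 3e-08). TFAM, which packages mitochondrial DNA, rose by 0.35 (adjusted p = 2.1e-05) and the ribosome assembly factor ERAL1 by 0.30 (adjusted p = 0.00021). STAR, which brings cholesterol into mitochondria, had 8.64 ± 2.29 and 17.3 ± 0.692 adjusted reads (adjusted p = 0.044), and its call was lost in 8 of the 13 other settings, at log2 fold changes of 0.74 to 1.03. COX4I1, a subunit of cytochrome c oxidase, was not called, at a log2 fold change of -0.05 (adjusted p = 0.32). These are RNA levels, and the proteins that LONP1 or ClpXP would degrade were not measured.

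Of 10 genes for substrates of YME1L1, OMA1, PARL and the m-AAA proteases, 2 were called higher and 4 lower, with a median log2 fold change of -0.02. MRPL32, the ribosomal protein that the m-AAA protease matures, fell from 781 ± 8.32 to 417 ± 23.1 adjusted reads (log2 fold change -0.91, adjusted p = 1.8e-08). SMDT1, a subunit of the calcium uniporter, fell by 0.74 (adjusted p = 3.9e-05). Of the PARL substrates, the mitophagy kinase PINK1 fell by 0.31 (adjusted p = 4e-05), while the phosphatase PGAM5 rose by 0.46 (adjusted p = 1.5e-06) and the lipid transfer protein STARD7 by 0.12 (adjusted p = 0.035). STARD7 was not called in 7 of the 13 other settings, at 0.09 to 0.12. OPA1, the fusion protein cut by YME1L1 and OMA1 and named here after its values had been seen, was not called, at a log2 fold change of 0.06 (adjusted p = 0.32).

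Around HTRA2, the caspase inhibitor XIAP rose by 0.23 (adjusted p = 0.0012), as did its antagonist DIABLO by 0.23 (adjusted p = 0.0024). BIRC2 was at a log2 fold change of 0.06 (adjusted p = 0.29) and BIRC3 at 0.23 (adjusted p = 0.077), neither of them called, although BIRC3 was called without pladienolide B replicate 3 (0.39) and by edgeR (0.25). The 4 genes had a median of 0.23, while HTRA2 itself stood at 0.01.

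Regulators of the mitochondrial unfolded protein response did not move together, with 2 of 6 called higher and 2 lower. DDIT3, which encodes CHOP, rose by 0.60 (adjusted p = 0.00081) and HSF1, the heat shock factor, by 0.28 (adjusted p = 2.4e-05). ATF4 fell by 0.36 (adjusted p = 0.00014) and ATF5 by 0.29 (adjusted p = 0.005). CEBPB and the kinase EIF2AK1, also known as HRI, were not called, at log2 fold changes of 0.20 (adjusted p = 0.073) and -0.02 (adjusted p = 0.79). CEBPB was called without DMSO replicate 3 (0.28) or pladienolide B replicate 3 (0.31). The list had a median of 0.09.

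All 4 tested genes of the list of hypoxia-responsive mitochondrial genes were called lower, with a median log2 fold change of -0.78. The list was written with the fall of LONP1 and of hypoxia genes in these samples known, so it is not independent evidence of a direction. BNIP3 went from 8812 ± 901 to 2654 ± 118 adjusted reads (log2 fold change -1.73, adjusted p = 3.5e-12). Its relative BNIP3L fell by 0.78 (adjusted p = 2.8e-08), PDK1, the kinase that inhibits pyruvate dehydrogenase, by 0.77 (adjusted p = 1.2e-07) and HIGD1A by 0.41 (adjusted p = 1.9e-05). COX4I2, whose protein replaces the COX4I1 subunit that LONP1 degrades, had no reads in any sample, and NDUFA4L2 had 6.41 and 5.90 adjusted reads on average and was not tested. LONP1, at -1.22, lay between BNIP3 and BNIP3L.

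**Figure D4:**
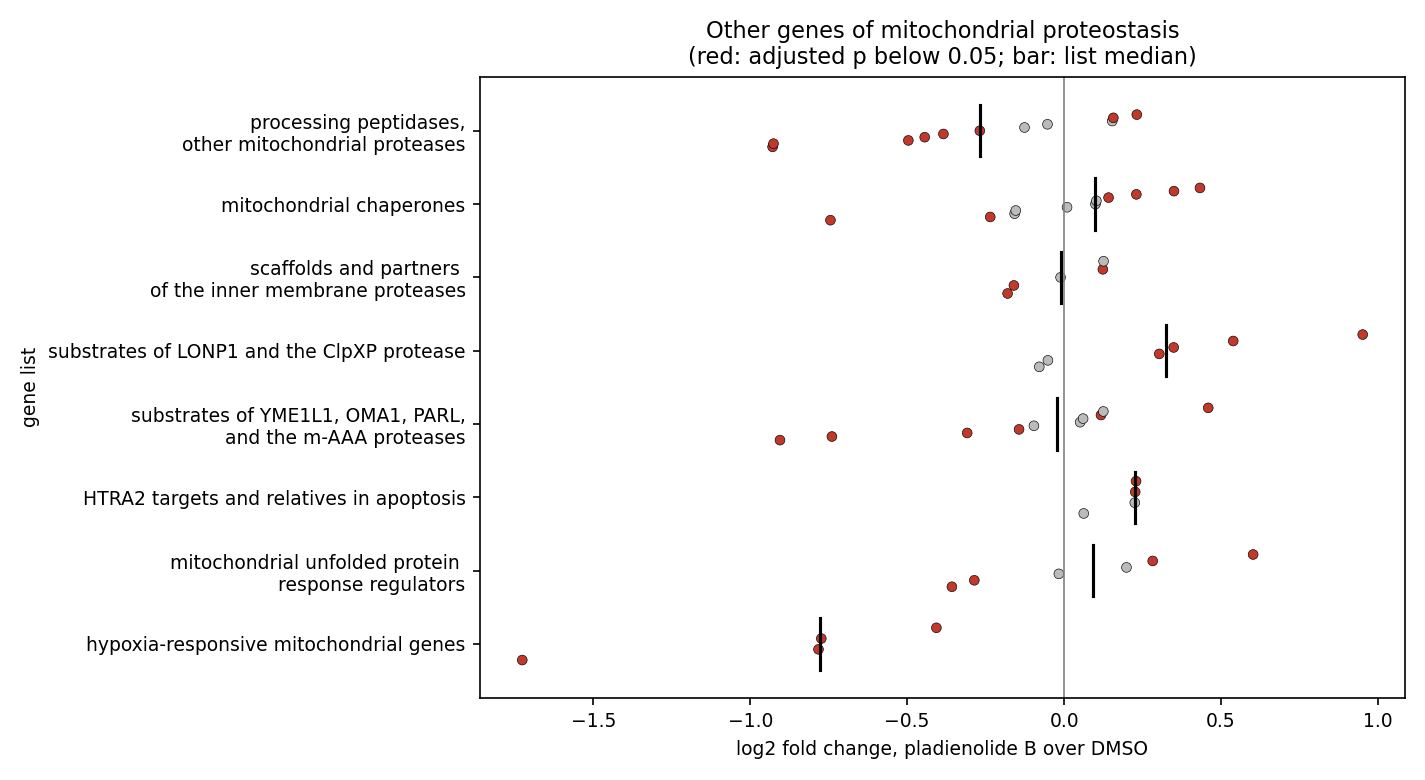
Log2 fold change of each tested gene in the 8 lists, with red points for an adjusted p below 0.05, grey points for the others and a bar at the median of each list. The 4 hypoxia-responsive genes all lie below 0, the LONP1 and ClpXP substrates have a median of 0.33, the 4 genes around HTRA2 lie above 0, and each of the other lists has called genes on both sides of 0.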

How the data were processed

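Polyadenylated RNA of 6 OVCAR8 samples was sequenced. The study aligned trimmed reads to hg38 with hisat2; the submitters' processing notes name HISAT2, HTSeq 0.12.4 and DESeq2, and the build hg19. Positions in the table overlap GRCh38.p14 for 99.8% of 35922 matched symbols. The authors deposited a signal per gene and sample adjusted for library size. Inverting edgeR's quantile adjustment (dispersion 0.0027) returned whole reads (tolerance 0.02) for 100% of values from 10 upwards. The deposited log2 fold changes, p-values and q-values of the authors' own comparison were not used, and 0 columns belonged to other samples.

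Since the values are not counts, limma 3.58.1 was fitted to log2(value + 1) over all 6 samples, with a variance trend, two-sided tests and p-values adjusted by Benjamini-Hochberg over the 16178 genes kept by filterByExpr (10 reads in 3 samples, 15 in total). A pseudocount of 1 understates changes of low genes. edgeR 4.0.16 and DESeq2 1.42.0 on the recovered reads were alternatives. The fit was tested on simulated data. Coding lengths, exons and introns are from GENCODE, promoters from RefSeq. Members and lists were chosen with earlier results of these data known. Named are all members, every gene of lists with up to 6 tested genes, otherwise up to 3 called genes in each direction, the 5 profiles most like LONP1 and genes overlapping a member. 1 gene of these lists is counted but not reported here. Protein sequences were not used here.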

Additional observations from a re-analysis of the deposited data

How the results depend on the processing

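Shares, ratios, markers, neighbouring genes, relatives and the rank of LONP1 were given for the main values only. The log2 fold changes and calls of members and list genes, and the call counts, were recomputed under 13 other settings. Over the 66 members and list genes this gave 858 values, of which 793 stayed on the same side of the threshold, 52 lost the call, 13 gained it and 0 called values changed direction. The number of members called went from 5 to 3 without the variance trend, where AFG3L2 and OMA1 were lost, and was 3 to 5 when each sample was left out. It was 3 without pladienolide B replicate 1 and without pladienolide B replicate 3, again through AFG3L2 and OMA1. AFG3L2 was also lost without DMSO replicate 1 (log2 fold change 0.14), and OMA1 also with DESeq2 (-0.41), without the filter (-0.42), without DMSO replicate 2 (-0.36) and without DMSO replicate 3 (-0.37). The number of genes called over the whole table was 6381 to 7836. edgeR called 7738, of which 7616 were also called by limma, and DESeq2 6985, of which 6957 were. Samples with the same number in both groups did not deviate together (correlations -0.018, -0.017 and 0.0026), so no pairing by number was seen. This cannot exclude that such samples were handled together. With the replicate block 7349 genes were called in place of 7695, all 5 members kept their call and 33 list genes were called in place of 37. Using the length of the whole transcript for the levels in DMSO gave 1711 for LONP1, 867 for CLPP, 381 for CLPX, 579 for HTRA2, 1327 for YME1L1, 1227 for AFG3L2, 510.4 for SPG7, 68.1 for OMA1 and 523 for PARL. Counting error was largest for OMA1, which had 78 to 142 reads in a sample, and 3 samples in a group limit the precision of every value.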
